A study of Mus musculus with 2 samples.

Results

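The endothelial genes were 33 genes that mark the vessel lining or act in it, chosen by name, and all 33 were found among the 17586 gene symbols of the deposited table. Bulk RNA-seq gave their values in 2 libraries, made from FOXJ1-EGFP mice on a C57BL/6 x 129 SvEv background, taken as embryos of 0 to 4 somites. In this line the FOXJ1 promoter, active in ciliated cells, drives a green fluorescent protein. The GFP positive cells, called LRO for the left–right organizer, and the GFP negative cells around them, called non-LRO, were sorted after dissection from pools of different embryos, and all embryos carried the transgene. Each group was 1 library, so every difference below compares these libraries, has no replicate check and was not tested between conditions. The authors assigned 16672844 LRO reads and 13418780 non-LRO reads to genes.

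Endothelial cells line blood and lymph vessels. In the mouse embryo the earliest of them arise from mesoderm of the yolk sac, allantois and embryo proper under the ETS factor ETV2, alongside the primitive blood cells. Signals through the VEGF receptors drive their growth and migration, TIE receptors steady the vessel, Notch sets artery against vein, and cadherin and claudin contacts seal one cell to the next. The left–right organizer is an epithelial pit of ciliated cells at the tip of the notochordal plate, where directional fluid flow precedes the asymmetry of the body.

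Most of the endothelial genes were lower in the LRO library. For each gene the ratio of LRO to non-LRO reads, after scaling to the library totals behind the RPKM values (30277870 LRO and 24407299 non-LRO reads), was given a 95% interval from the exact binomial distribution of its reads (Clopper-Pearson). The size rule called a gene lower where the whole interval lay under 0.5 and higher where it lay above 2. By this rule 30 of the 33 genes were lower, where 12.3% of all genes in the table were lower. 1 of the 33, the apelin receptor gene Aplnr, was higher, where 3.97% of all genes were higher. Etv2 and Flt4 were neither. The median log2 ratio of the 33 genes, with a pseudocount of 1 read, was -2.90 after subtracting the shift of -0.31 seen over the 9894 genes that reached 50 reads in each library, and -2.71 where genes without LRO reads were set to a floor of 3 reads. Over all genes the same relative median was -0.12. The intervals cover counting error only, and because the cDNA was amplified its reads are not independent molecules. In a bulk sample, fewer cells of a type and less RNA per cell cannot be told apart.

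Scaled to transcript length, the 33 genes summed to 132 RPKM (reads per kilobase of transcript, scaled to library size) for LRO and 145 RPKM for non-LRO cells. Aplnr alone gave 83.1% of the LRO sum and 22.3% of the non-LRO sum. The other 32 genes summed to 22.3 RPKM in the LRO library and 113 RPKM in the non-LRO library, and their 2323 LRO and 8216 non-LRO reads gave a ratio of 0.228 (95% interval 0.218–0.239). 9 of the 33 genes exceeded 1 RPKM in the LRO library and 24 did in the non-LRO library, beside 9649 and 10411 of all 17586 genes. 5 genes, Pecam1, Cldn5, Icam2, Lyve1 and Stab2, had 0 LRO reads, 8 more had under 10, and none had 0 reads in the non-LRO library. Of all 17586 genes, 2230 had 0 LRO reads and 797 had 0 non-LRO reads, so zeros were more frequent in the LRO library in general. A count of 0 in the LRO library allows a share of up to 9.91e-06% of its reads.

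**Figure D1:**
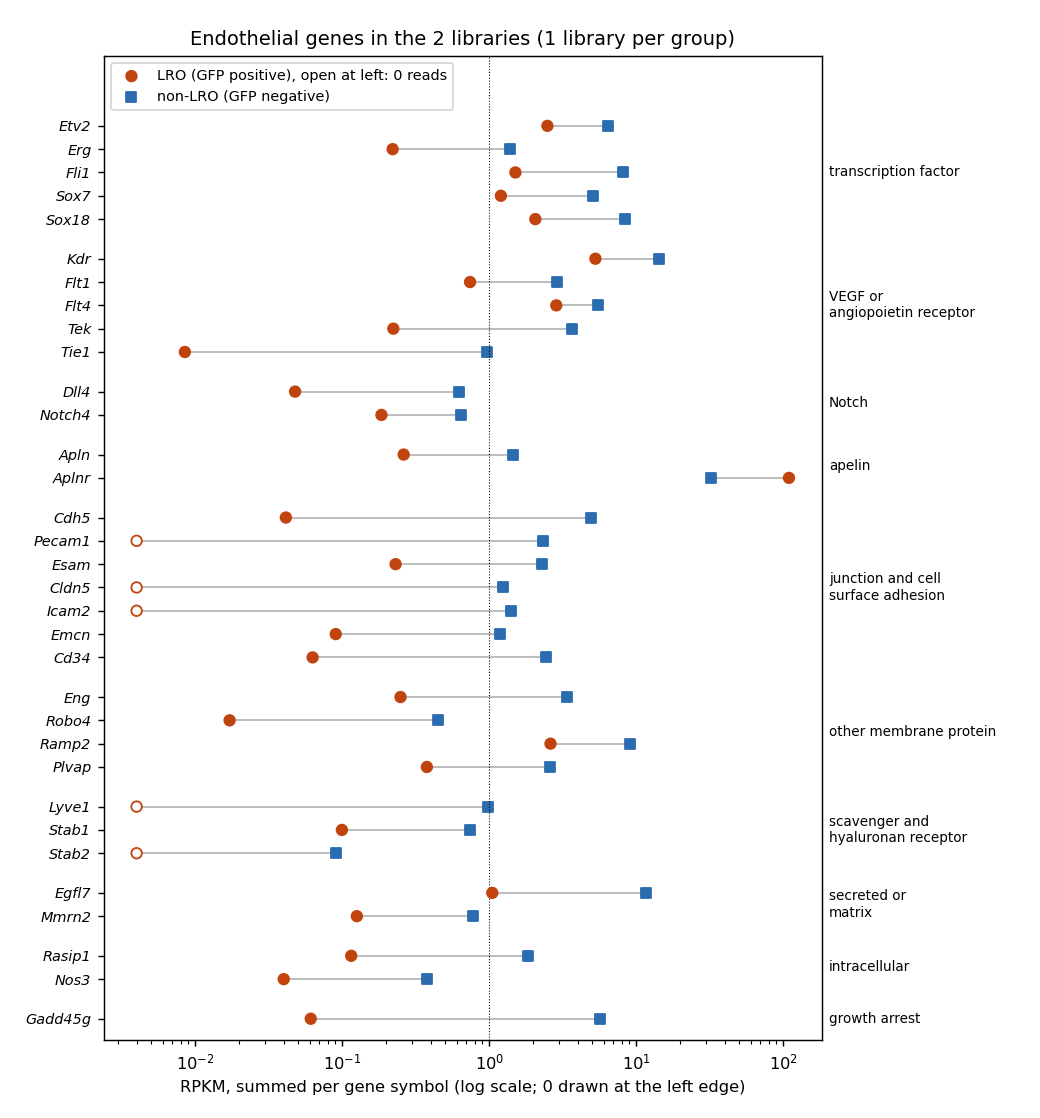
Level of each endothelial gene in RPKM on a log axis, by role, in the LRO library (circles) and the non-LRO library (squares), 1 library each, with 0 drawn as an open circle at the left. 32 of the 33 genes lie further left in the LRO library, 5 of them at 0, and Aplnr alone lies further right (109 RPKM in LRO and 32.5 RPKM in non-LRO).

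The sequence before the start of a gene is where many of its regulators bind, and 20 of the 33 genes had promoter windows (250 bases before to 50 after the annotated start) in the RefSeq table of build GRCm38.p6. The bases before the start are shown for the 4 of these 20 genes with the lowest upper bound of the ratio. Among all 33 genes, others without a window, such as Pecam1 and Cdh5, had lower upper bounds. They are read 5′ to 3′ along the gene and capitals mark a TATAAA box, a motif that was added to the search after the others. Gadd45g lies at chr13:51846425-51846674 (plus strand), Tie1 at chr4:118489850-118490099 (minus strand), Cd34 at chr1:194938571-194938820 (plus strand) and Cldn5 at chr16:18776597-18776846 (plus strand).
Gadd45g: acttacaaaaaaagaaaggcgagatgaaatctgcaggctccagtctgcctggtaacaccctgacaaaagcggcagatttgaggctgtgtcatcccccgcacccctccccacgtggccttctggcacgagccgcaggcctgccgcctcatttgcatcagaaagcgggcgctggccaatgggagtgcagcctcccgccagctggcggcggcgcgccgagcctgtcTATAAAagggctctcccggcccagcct
Tie1: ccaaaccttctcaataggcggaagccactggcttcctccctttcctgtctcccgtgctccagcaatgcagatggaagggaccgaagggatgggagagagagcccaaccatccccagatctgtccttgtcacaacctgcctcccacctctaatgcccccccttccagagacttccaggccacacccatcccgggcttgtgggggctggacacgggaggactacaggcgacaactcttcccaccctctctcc
Cd34: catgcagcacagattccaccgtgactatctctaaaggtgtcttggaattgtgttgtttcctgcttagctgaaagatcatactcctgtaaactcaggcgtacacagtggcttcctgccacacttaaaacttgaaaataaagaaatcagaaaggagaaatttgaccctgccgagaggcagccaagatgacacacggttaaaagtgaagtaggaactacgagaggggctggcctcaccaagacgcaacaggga
Cldn5: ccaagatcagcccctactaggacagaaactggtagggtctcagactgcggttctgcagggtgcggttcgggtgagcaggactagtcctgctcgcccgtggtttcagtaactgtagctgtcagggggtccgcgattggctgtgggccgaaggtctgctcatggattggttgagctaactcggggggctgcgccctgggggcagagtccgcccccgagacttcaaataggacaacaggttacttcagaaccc
Of these, only Gadd45g held TATAAA, beginning 27 bases before the start, and over all 32851 windows 13.6% held it on either strand. None of the 4 windows held the ETS motifs CCGGAAG or ACAGGAAG, which share GGAAG and cannot both match at one place, nor the SOX motif AACAAT or the GATA motif AGATAA.

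Across the 24 windows of the 20 genes, searched on both strands, CCGGAAG was found in 0, where 8.86% of all windows held it, and ACAGGAAG in 3, belonging to Egfl7 and Emcn, where 3.58% of all windows held it. AACAAT was found in the windows of Emcn, Erg and Tek, against 10.7% of all windows, and AGATAA in windows of Erg and Tek, against 11.2%. The matches are shown with 10 bases on either side as far as the window reached, motif in capitals and read along the gene, because ETS, SOX and GATA factors are among the genes described here. A match is a run of letters and not a measured binding site.
Egfl7 ETS, downstream start: gagaacacacACAGGAAGtccggcggga
Egfl7 ETS, upstream start: tgggagacaaACAGGAAGgccatctctc
Emcn ETS: agaagggtctCTTCCTGTtcaaatccca
Emcn SOX: aaggggctgaAACAATaaatctcctc
Tek SOX: ggatacccctATTGTTcctgaaaatg
Tek GATA: caggagcagaAGATAAgccttgga
Erg SOX: gaaaaacaacATTGTTttcagggtct
Erg GATA: tcagggtctcTTATCTctccactccc
The Egfl7 stretches are at chr2:26583773-26583800 and chr2:26580982-26581009 (plus strand), the Emcn stretches at chr3:137340894-137340921 (plus strand) and chr3:137341018-137341043 (plus strand), the Tek stretches at chr4:94739216-94739241 and chr4:94739315-94739338 (plus strand) and the Erg stretches at chr16:95459453-95459478 (minus strand) and chr16:95459436-95459461 (minus strand). In Emcn, Tek and Erg some matches were on the opposite strand, so that the capitals read as the reverse complement, CTTCCTGT, ATTGTT or TTATCT.

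The transcription factors that start and hold the endothelial programme were lower in the LRO library in 4 of 5 cases, but 4 of the 5 still exceeded 1 RPKM there. Etv2, the ETS factor that commits mesoderm to blood and endothelium, had 79 reads (2.49 RPKM) in LRO and 165 reads (6.45 RPKM) in non-LRO cells. Its ratio of 0.386 (0.291–0.508) reached just past 0.5, so it was not called. Fli1, another ETS factor of blood and vessels, had 145 LRO and 634 non-LRO reads (1.51 and 8.18 RPKM), a ratio of 0.184 (0.153–0.221). Erg, the ETS factor that keeps endothelial identity in the adult vessel, had the lowest RPKM of the 5 in both libraries, with 21 LRO and 107 non-LRO reads (0.221 and 1.38 RPKM), a ratio of 0.158 (0.0941–0.254). The SOXF factors Sox7 and Sox18, which act in arterial and lymphatic specification, stood close together. Sox7 had 119 LRO and 408 non-LRO reads, a ratio of 0.235 (0.190–0.289), and Sox18 had 101 LRO and 333 non-LRO reads, a ratio of 0.244 (0.194–0.306). The intervals of Fli1, Sox7, Sox18 and Erg overlapped one another, while that of Etv2 lay above those of Fli1, Sox7 and Erg.

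The receptors split by family. The 3 VEGF receptors together had 1518 LRO and 3124 non-LRO reads, a ratio of 0.392 (0.368–0.417), and the 2 TIE receptors had 32 LRO and 512 non-LRO reads, a ratio of 0.0504 (0.0341–0.0720), so that the intervals of the families did not overlap. Kdr, the main VEGF-A receptor and an early marker of endothelial and other mesoderm, was in both libraries the member with the highest RPKM after Aplnr, at 5.28 RPKM (871 reads) in the LRO library and 14.3 RPKM (1899 reads) in the non-LRO library. Its ratio was 0.370 (0.341–0.401), and under TMM scaling (factors that align the bulk of genes) it was 0.471 and no longer past the bound. Flt1, the decoy VEGF receptor that restrains KDR signalling, had 141 LRO and 446 non-LRO reads, a ratio of 0.255 (0.209–0.309). Flt4, the VEGF-C receptor of early vessels and later of lymphatics, had 506 LRO reads (2.86 RPKM) and 779 non-LRO reads (5.47 RPKM), and its ratio of 0.524 (0.467–0.586) was not called. Within one receptor family the ratio thus ran from 0.255 for Flt1 to 0.524 for Flt4, with intervals that did not overlap.

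Tek, the angiopoietin receptor TIE2, had 31 LRO reads (0.223 RPKM) and 421 non-LRO reads (3.67 RPKM), a ratio of 0.0594 (0.0398–0.0855). Tie1, its partner receptor without a strong ligand of its own, had 1 LRO read and 91 non-LRO reads (0.00851 and 0.961 RPKM), a ratio of 0.00886 (0.000222–0.0506). A single read gives the Tie1 ratio a wide interval, which overlapped that of Tek.

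**Figure D2:**
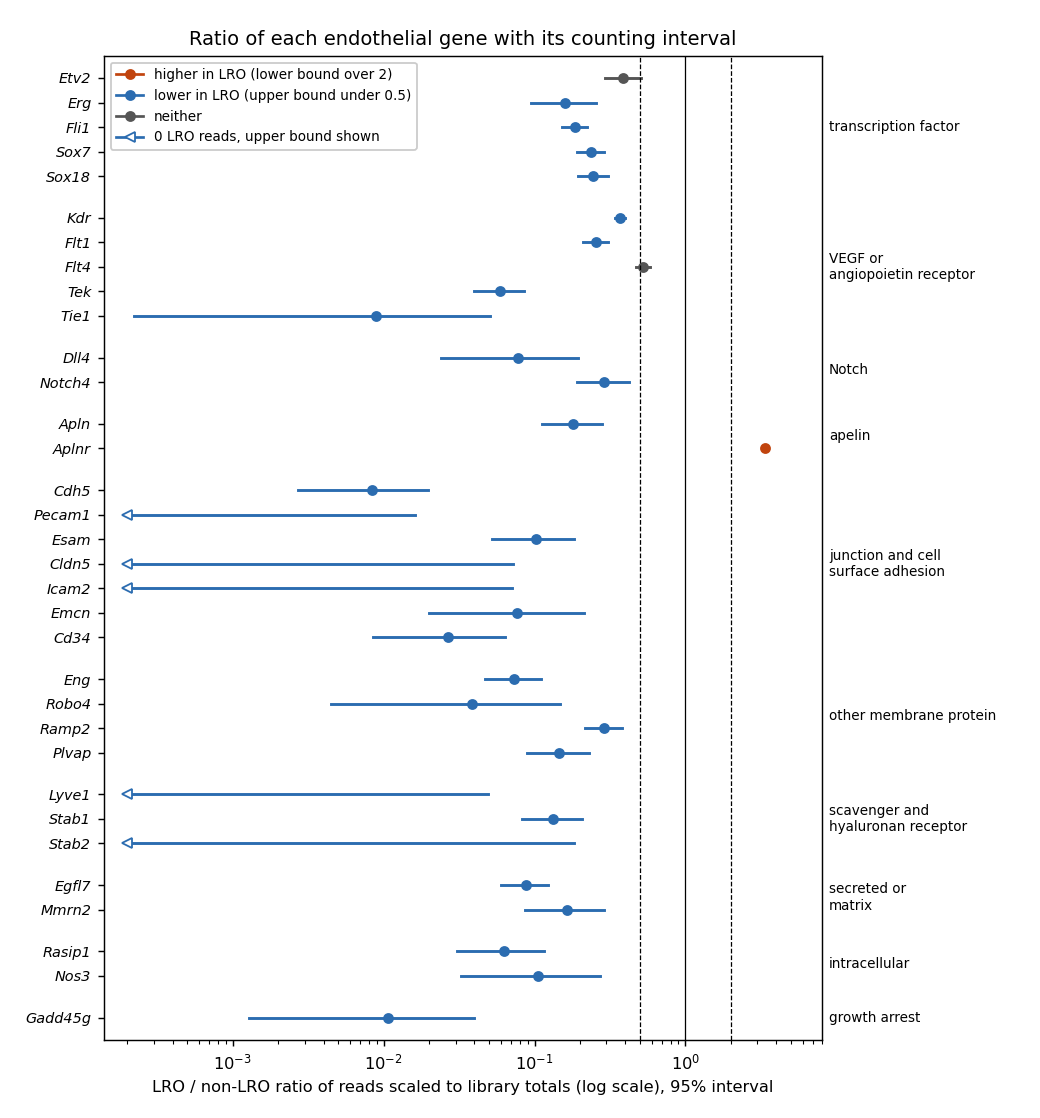
Ratio of LRO to non-LRO reads of each endothelial gene on a log axis, scaled to library totals, with its 95% counting interval, grouped by role, and dashed lines at 0.5 and 2. The intervals of 30 genes lie under 0.5, those of Etv2 and Flt4 cross it, and Aplnr lies at 3.37 (3.24–3.52); open triangles mark the 5 genes with 0 LRO reads.

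The few Tek reads of the LRO library were also spread differently over its transcripts. Of the 3 RefSeq transcripts of Tek, NM_001290551 took 22.1 estimated LRO reads and 9.51 estimated non-LRO reads, which was 71.3% of the LRO and 2.26% of the non-LRO reads of the gene. Its ratio, from reads rounded to whole numbers, was 1.77 (0.806–4.20), so this form was neither lower nor higher. NM_001290549 had 4.51 LRO and 219 non-LRO reads, and NM_013690 had 4.37 LRO and 193 non-LRO reads, and both were lower. Erg had a similar split over 6 transcripts. NM_001302154 held 53.5% of the LRO reads of the gene and 12.0% of the non-LRO reads, while NM_001302153 held 18.3% of the LRO and 51.3% of the non-LRO reads. With 21 LRO reads for Erg and 31 for Tek, and with shared reads divided by an estimate, these shares rest on few reads. 24 of the 33 genes had a single transcript in the table.

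**Figure D3:**
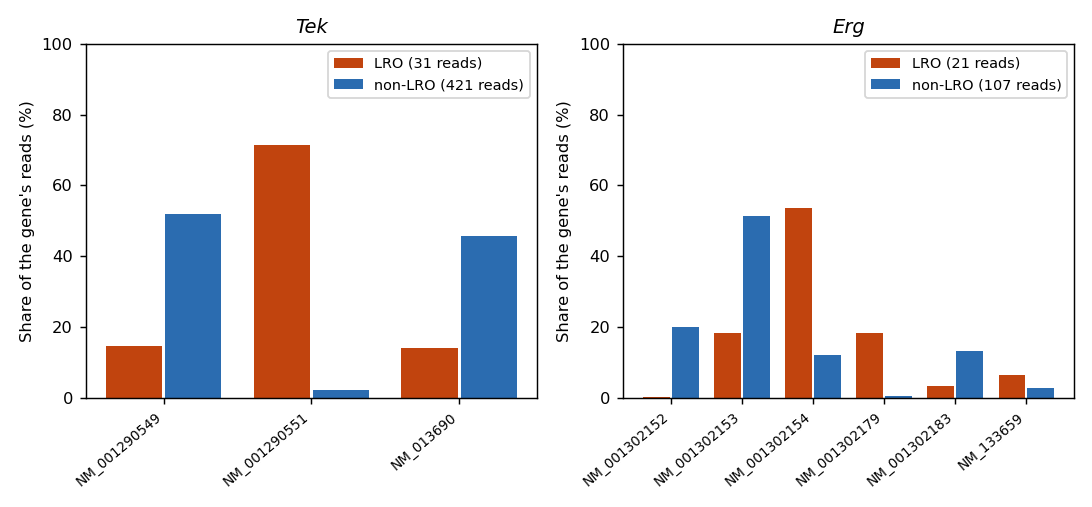
Share of the reads of Tek (left) and Erg (right) that the authors assigned to each RefSeq transcript, in percent, in the LRO library (left bar of each pair) and the non-LRO library (right bar). NM_001290551 held 71.3% of the 31 LRO reads of Tek and 2.26% of its 421 non-LRO reads, and NM_001302154 held 53.5% of the 21 LRO reads of Erg and 12.0% of its 107 non-LRO reads.

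The Notch genes of the arterial endothelium were low in both libraries, under 1 RPKM in each. Dll4, the ligand that tip and arterial cells present, had 5 LRO and 52 non-LRO reads (0.0479 and 0.622 RPKM), a ratio of 0.0775 (0.0242–0.193). Notch4, the receptor largely restricted to endothelium, had 37 LRO and 104 non-LRO reads (0.185 and 0.645 RPKM), a ratio of 0.287 (0.192–0.421). Dll4 and Notch4 had nearly the same RPKM in the non-LRO library and differed in the LRO library, though their intervals overlapped at the ends. The Notch4 call was lost under TMM scaling, at a ratio of 0.365, and under scaling to the median ratio of well-read genes, at 0.355.

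The apelin pair parted in direction. Aplnr, the G protein-coupled receptor for apelin and for the early peptide ELABELA, which is carried by migrating mesoderm as well as by endothelium, had 11814 reads (109 RPKM) in the LRO library and 2823 reads (32.5 RPKM) in the non-LRO library. It had the highest RPKM of the 33 genes in both libraries, and stood at the 98.7th percentile of all genes in the LRO library and at the 94.7th in the non-LRO library. Its ratio was 3.37 (3.24–3.52) and stayed above 2 under each of the 4 other scalings, but not past a fold bound of 4. Apln, the apelin ligand made by sprouting tip cells, had 25 LRO and 112 non-LRO reads (0.262 and 1.46 RPKM), a ratio of 0.180 (0.112–0.280). Apela, which encodes ELABELA and is not one of the 33, had 243 LRO and 250 non-LRO reads (8.23 and 10.5 RPKM), a ratio of 0.784 (0.654–0.939), and was not called. The receptor was thus higher in the LRO library while neither ligand was.

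The genes of endothelial contacts and surface adhesion were lower without exception. None of the 7 exceeded 1 RPKM in the LRO library and all 7 did in the non-LRO library, and they summed to 27 LRO reads and 1046 non-LRO reads, a ratio of 0.0208 (0.0136–0.0305). Cdh5, the VE-cadherin of the endothelial adherens junction, had 5 LRO reads and 478 non-LRO reads (0.0414 and 4.91 RPKM), a ratio of 0.00843 (0.00273–0.0198), where a ratio of 1 would have given 593 LRO reads. Pecam1, the CD31 adhesion molecule, had 0 LRO reads and 185 non-LRO reads (2.32 RPKM in non-LRO) and was 76.5-fold lower against a floor of 3 reads in the LRO library. That floor is a convention, and the upper bound of the Pecam1 interval was 0.0162, or 61.6-fold lower. Cldn5, the claudin of endothelial tight junctions, had 0 LRO and 43 non-LRO reads. It was 17.8-fold lower against the same floor and 13.8-fold lower at its upper bound. Icam2, an adhesion molecule of resting endothelium, had 0 LRO and 44 non-LRO reads. It was 18.2-fold lower against the floor and 14.2-fold lower at its upper bound. The remaining surface genes kept a few reads. Cd34, the sialomucin of endothelium and blood progenitors, had 5 LRO and 151 non-LRO reads, a ratio of 0.0267 (0.00854–0.0637). Emcn, the endomucin of veins and capillaries, had 4 LRO and 42 non-LRO reads, a ratio of 0.0768 (0.0200–0.212). Esam, an immunoglobulin-family junction protein, had 13 LRO and 103 non-LRO reads, a ratio of 0.102 (0.0524–0.182), and its interval lay above those of Cdh5 and Pecam1.

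The other membrane proteins were lower as well, and of these Ramp2 alone exceeded 1 RPKM in the LRO library. Ramp2, the partner protein that makes the calcitonin receptor-like receptor respond to adrenomedullin, had 69 LRO reads (2.61 RPKM) and 193 non-LRO reads (9.07 RPKM), a ratio of 0.288 (0.216–0.381). It ranked the 4th highest of the 33 genes by RPKM in both libraries. Eng, the endoglin co-receptor for BMP9 and TGF-beta, had 26 LRO and 285 non-LRO reads, a ratio of 0.0735 (0.0472–0.110). Plvap, the protein of endothelial fenestrae, had 23 LRO and 127 non-LRO reads, a ratio of 0.146 (0.0893–0.229). Robo4, the endothelial roundabout receptor, had 2 LRO and 42 non-LRO reads, a ratio of 0.0384 (0.00450–0.148). The interval of Ramp2 overlapped that of Plvap and lay above those of Eng and Robo4. Reads from Eng cannot be told apart by strand from those of Fpgs, which overlaps it on the opposite strand in the table and had 219 LRO and 403 non-LRO reads.

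The scavenger and hyaluronan receptors, later typical of lymphatic and sinusoidal endothelium, were below 1 RPKM in both libraries. Lyve1, the hyaluronan receptor of lymphatics, had 0 LRO and 62 non-LRO reads (0.974 RPKM in non-LRO). It was 25.6-fold lower against the floor and 20.2-fold lower at its upper bound. Stab2, a hyaluronan scavenger receptor of sinusoids, had 0 LRO and 18 non-LRO reads, 7.44-fold lower against the floor and 5.45-fold lower at its upper bound. Stab1, its paralogue on sinusoidal cells and some macrophages, had 24 LRO and 146 non-LRO reads, a ratio of 0.133 (0.0823–0.205). Reads of Stab1 cannot be told apart by strand from those of Nt5dc2, which overlaps it on the opposite strand and had 4353 LRO and 3799 non-LRO reads.

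The secreted and intracellular genes followed. Egfl7, a matrix protein of the endothelium that hosts the microRNA miR-126, ranked 9th of the 33 by RPKM in LRO cells and 3rd in non-LRO cells, with 37 LRO reads (1.05 RPKM) and 342 non-LRO reads (11.7 RPKM), a ratio of 0.0872 (0.0604–0.123). Mmrn2, a matrix protein that binds VEGF-A, had 15 LRO and 74 non-LRO reads, a ratio of 0.163 (0.0871–0.287). Rasip1, needed for vessel lumen formation in the mouse, had 11 LRO and 142 non-LRO reads, a ratio of 0.0624 (0.0305–0.115). Nos3, the endothelial nitric oxide synthase, had 5 LRO and 38 non-LRO reads, a ratio of 0.106 (0.0326–0.270). Gadd45g, a growth arrest and stress response gene that is not restricted to endothelium, had 2 LRO reads and 150 non-LRO reads (0.0612 and 5.69 RPKM), a ratio of 0.0107 (0.00129–0.0395).

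**Figure D4:**
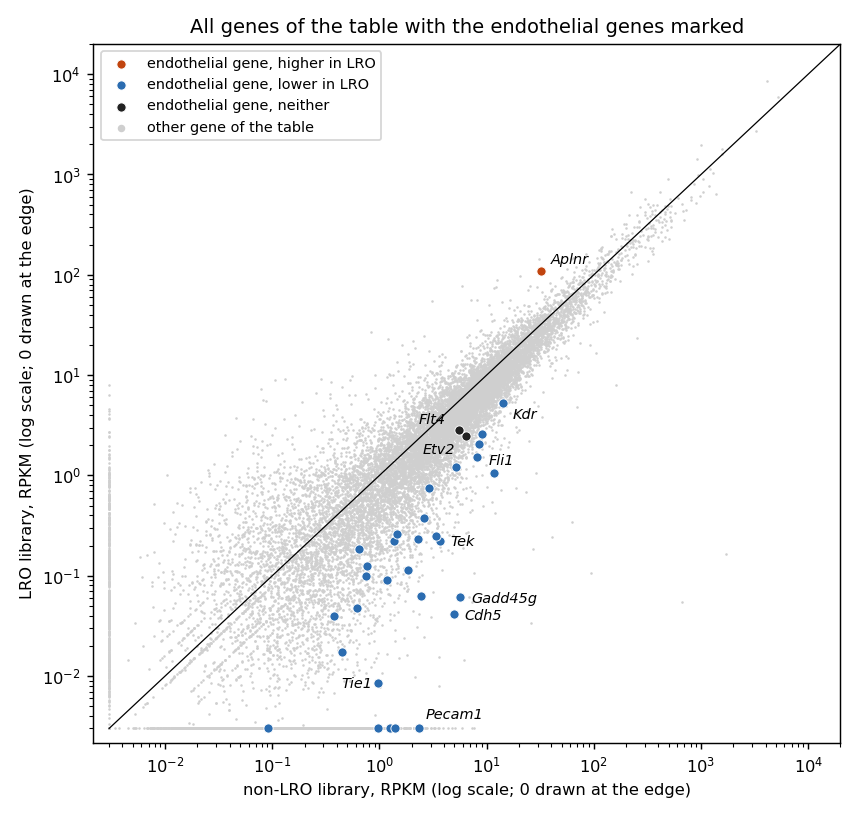
RPKM of each gene of the table in the LRO library (vertical, log scale) against the non-LRO library (horizontal, log scale), with the line of equal RPKM, zeros at the edges and the 33 endothelial genes marked. Aplnr lies above the line, Flt4 and Etv2 lie just below it within the cloud of genes, and Cdh5, Gadd45g, Tie1 and Pecam1 lie far below it.

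A list of 84 further genes of vessel biology outside the 33 was read the same way. 28 of the 84 (33.3%) were lower, beside 12.3% of all genes. 3 of the 84 (3.57%) were higher, no more than the 3.97% of all genes. The other 53 were neither, and after subtracting the shift the median log2 ratio of the 84 was -0.39. Under TMM scaling the split of the 84 was 21 lower and 11 higher, beside 1388 lower and 1134 higher of all 17586 genes. Among the ligands, 5 of 14 were lower, and 3 of 14 under TMM scaling. Pgf, placental growth factor, had 22 LRO and 148 non-LRO reads, a ratio of 0.120 (0.0729–0.188), and Angpt2, the context-dependent angiopoietin, had 30 LRO and 161 non-LRO reads, a ratio of 0.150 (0.0982–0.223). Vegfa, the chief ligand of KDR, had 609 LRO and 1058 non-LRO reads (6.02 and 13.5 RPKM), a ratio of 0.464 (0.419–0.513), and just missed the bound. Vegfb, Vegfc, Vegfd and Angpt1 were not called either, with ratios between 0.712 and 0.976. Vegfd rested on 9 LRO and 8 non-LRO reads (interval 0.311–2.70), and Angpt1 on 38 LRO and 43 non-LRO reads (0.448–1.13). Of the neuropilin co-receptors, Nrp1 was lower at 645 LRO and 1393 non-LRO reads, a ratio of 0.373 (0.339–0.410). The Nrp1 call was lost under TMM scaling, at 0.475, and under scaling to the median ratio of well-read genes, at 0.461. Nrp2, at 1690 LRO and 2287 non-LRO reads and a ratio of 0.596 (0.559–0.635), was not called.

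Of 6 early factors of blood and endothelium outside the 33, 4 were lower, beside 12.3% of all genes. They belong to the 19 transcription factors of the list, of which 6 were lower and 2 higher. Under TMM scaling 6 of the 19 were lower and 6 higher, beside 1388 and 1134 of all 17586 genes. Tal1, needed in mice for both lineages, had 280 LRO and 1184 non-LRO reads (2.19 and 11.5 RPKM), a ratio of 0.191 (0.167–0.217). Lmo2, its partner, had 127 LRO and 726 non-LRO reads, a ratio of 0.141 (0.116–0.170). Gata2 had 104 LRO and 284 non-LRO reads, a ratio of 0.295 (0.233–0.371). Sox17, a SOXF factor of endothelium and also of endoderm, had 18 LRO and 84 non-LRO reads, a ratio of 0.173 (0.0977–0.290). Hhex (49 LRO and 105 non-LRO reads, ratio 0.376, 0.262–0.533) and Ets1 (1126 LRO and 614 non-LRO reads, ratio 1.48, 1.34–1.63) were not called.

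The other genes of the list with bounds furthest below 1 were Gja5, Pdgfb, Lyl1, Ptprb, Gja4 and Nid1. The arterial connexin Gja5 had 0 LRO and 31 non-LRO reads, and the pericyte attractant Pdgfb 0 LRO and 29 non-LRO reads. Against the floor of 3 reads they were 12.8-fold and 12.0-fold lower, and at their upper bounds 9.82-fold and 9.15-fold. Lyl1 had 3 LRO and 60 non-LRO reads, the phosphatase gene Ptprb 20 LRO and 149 non-LRO, the connexin Gja4 9 LRO and 79 non-LRO, and the basement membrane gene Nid1 277 LRO and 1366 non-LRO, with ratios between 0.0403 and 0.163. The 3 higher genes were Mef2c, a muscle and vessel factor, with 2146 LRO and 231 non-LRO reads (ratio 7.49, 6.54–8.61), Prox1, the lymphatic master factor that other tissues also use, with 1071 LRO and 232 non-LRO reads (ratio 3.72, 3.23–4.31), and Clec14a, an endothelial lectin, with 42 LRO and 2 non-LRO reads (ratio 16.9, 4.40–144). Clec14a thus went the other way from Cdh5 and Pecam1 on few reads. None of the 8 Notch ligands and targets passed the rule under scaling to library totals, with Jag1 at a ratio of 1.94 (1.77–2.13) and Hes1 at 1.98 (1.62–2.44). The median of the 8 lay 1.17 above the shift of the well-read genes on the log2 scale. Under TMM scaling and under the median ratio of well-read genes 3 of the 8, Jag1, Hes1 and Efnb2, were higher. Of all 17586 genes, 1134 and 1056 were higher under these scalings.

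**Figure D5:**
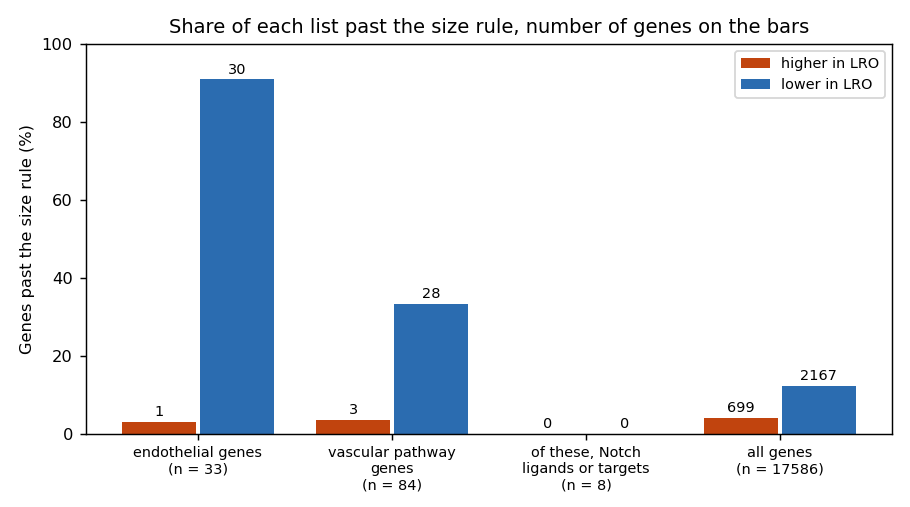
Percentage of each list past the size rule, higher (left bar) and lower (right bar) in the LRO library, with the number of genes on each bar. 30 of 33 endothelial genes were lower, against 28 of 84 vascular pathway genes, 0 of the 8 Notch ligands or targets among these, and 2167 of all 17586 genes. Under TMM scaling, not drawn here, 3 of the 8 were higher, beside 1134 of all genes.

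Markers of other cells that the pools could hold differed between the libraries as well. By the same size rule, 12.3% of all genes were lower and 3.97% were higher. Of 7 node and LRO markers, 7 were higher in the LRO library (summed 40.3 RPKM in LRO and 1.51 RPKM in non-LRO), Foxj1 among them with 194 LRO and 4 non-LRO reads. Of 9 primitive erythroid markers, 9 were lower (summed 1.11 RPKM in LRO and 2571 RPKM in non-LRO), and Gata1, Klf1 and Slc4a1 had 0 LRO reads. Of 5 allantois markers, 5 were lower (0.418 RPKM in LRO and 38.2 RPKM in non-LRO), with Hoxa11 and Hoxa13 at 0 LRO reads. Of 7 extraembryonic endoderm markers, 7 were lower (4.89 RPKM in LRO and 69.5 RPKM in non-LRO), with Afp, Apoa2 and Amn at 0 LRO reads. Of 8 haematopoietic and macrophage markers in the table, 3 were lower, Runx1, Mrc1 and Itga2b, and all 8 summed to 0.409 RPKM in LRO and 2.44 RPKM in non-LRO. The other 5 were not called, on few reads. Csf1r had 24 LRO and 22 non-LRO reads, Ptprc 0 and 5, Cx3cr1 2 and 1, Itgam 2 and 0, and Gp1bb 4 and 0. The 4 genes listed for endocardium were not called under scaling to library totals (39.3 RPKM in LRO and 21.7 RPKM in non-LRO). Whether these genes are restricted to endocardium in the pools was not tested, so their values do not count endocardial cells. Under TMM scaling and under the median ratio of well-read genes 3 of them, Npr3, Cdh11 and Hand2, were higher. Beside them, 1134 and 1056 of all 17586 genes were higher under these scalings. Those 3 genes went in the opposite direction to most endothelial genes. Nfatc1, the remaining gene of the 4, did not, with 225 LRO and 365 non-LRO reads, a ratio of 0.497 (0.419–0.588), and 0.633 under TMM scaling. The part of these cells in the endothelial differences was not tested.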

How the data were processed

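RNA from 1 LRO and 1 non-LRO pool was purified (RNeasy Micro), turned into amplified double-stranded cDNA with the Ovation kit, which does not keep strand, and made into libraries with the Nextera kit. The LRO pool held fewer cells and less RNA. Per the labels, TopHat and Partek Genomics Suite 6.6 were used. The deposited estimated counts are reads that the authors assigned to each of 27606 RefSeq transcripts, with shared reads split. The deposited RPKM values are those reads scaled by the authors to transcript length and library total, and the deposited transcript length is in bases. Columns with the authors' own comparisons (chi-square statistics and p-values) were not used, nor were 4 further columns of junction and incompatible RPKM per library. The LRO column carried no label of its sample: it was the only other library, and a supplementary table of the study heads the same values as GFP positive. The labels name mm10, but the table reaches base 197002910 on chromosome 1, past GRCm38, so its positions are not given.

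Reads and RPKM were summed per symbol and reads rounded to whole numbers. Library totals (30277870 LRO and 24407299 non-LRO) were recovered from reads, length and RPKM. At these depths 1 read on 1 kilobase is worth 0.0330 RPKM in the LRO and 0.0410 RPKM in the non-LRO library. Ratios, exact intervals, the size rule and the floor of 3 reads are as stated with the results (Python 3.11.15, scipy 1.17.1), and no test of conditions was possible. The calculation was tested on simulated data with independent reads, so that test does not cover the amplification of the cDNA. Alternatives were 4 other scalings (TMM from edgeR 4.0.16 among them), fold bounds of 1.5 and 4, a 99% interval, at least 50 reads over both libraries, reads divided by 10, the transcript with the most reads, and pseudocounts of 0.5 and 5. All 33 endothelial genes are named. Of the 84 vascular genes, the VEGF, angiopoietin and apelin ligands and co-receptors, 6 early factors and up to 6 other called genes in each direction are named. Jag1, Hes1, Efnb2 and the genes listed for endocardium, Npr3, Cdh11, Hand2 and Nfatc1, were added after their values were seen. The genes and lists were chosen with earlier results of these data known. Vegfd was found under its current symbol, and Spi1 and Pf4 were not found among the symbols of the table. 1 further erythroid marker of the list is not reported here. Promoter windows are RefSeq's, build GRCm38.p6. 4 genes with a single transcript had reads that were not whole (tolerance 0.001), Dll4, Nos3, Stab1 and Sox7.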

Additional observations from a re-analysis of the deposited data

How the results depend on the processing

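No paired analysis was possible because there was 1 library in each group, and for the same reason no library could be left out. The 33 endothelial genes kept their direction under all alternatives tried that held them, with 32 ratios below 1 and that of Aplnr above 1. The count of 30 lower genes was 28 under TMM factors (Kdr and Notch4 lost), 29 under the median ratio of well-read genes (Notch4 lost), 32 at a fold bound of 1.5 (Etv2 and Flt4 gained), 20 at a bound of 4, 24 of the 27 genes with 50 or more reads in sum, and 14 with reads divided by 10. Fewer reads widen the interval, and this last setting shows what depth limits. Over all 17586 genes the count of lower genes was 2167 as reported, 1388 under TMM factors, 1443 under the median ratio and 3872 at a bound of 1.5. At a bound of 4 it was 680, and with reads divided by 10 it was 290. Of the 12033 genes of the table with 50 or more reads in sum, 1343 were lower. 11 genes were lower under all settings: Fli1, Tek, Tie1, Cdh5, Pecam1, Cd34, Eng, Stab1, Egfl7, Rasip1 and Gadd45g. At a bound of 4 no endothelial gene was higher (0), beside 246 of all genes. Other scalings changed the split over all genes: the higher genes were 24.4% of all calls as reported, 45.0% under TMM factors, 42.3% under the median ratio of well-read genes and 34.1% for assigned reads without the abundant genes Rn45s and Lars2.

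The median log2 ratio of the endothelial genes before the shift is subtracted was -3.20. It was -2.86 under TMM factors, -2.90 under the median ratio of well-read genes, -3.02 for assigned reads without Rn45s and Lars2, -2.73 with at least 50 reads, -2.53 with reads divided by 10 and -2.69 at a pseudocount of 5. Of the 84 vascular pathway genes, 28 were lower and 3 higher. The split was 21 lower and 11 higher under TMM factors and under the median ratio, 23 lower and 8 higher without Rn45s and Lars2, and 36 lower and 12 higher at a bound of 1.5. 8 were lower with reads divided by 10 and 13 at a bound of 4. Over all 17586 genes the split was 1388 lower and 1134 higher under TMM factors, and 1443 and 1056 under the median ratio. It was 1719 and 890 without Rn45s and Lars2, and 3872 and 1242 at a bound of 1.5. Reading the genes of the other lists under each scaling was chosen after seeing the data. The cause of these changes was not tested beyond the construction of each setting.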
